A study of Homo sapiens with 4 samples.

Results

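Aldo-keto reductases were examined in MDA-MB-231 cells (written MDA-B-231 in the sample titles), a human triple-negative breast cancer line, as the genes AKR1C1, AKR1C2, AKR1C3, AKR1B1, AKR1B10, AKR1A1 and AKR7A2. These 7 of the 61471 gene names in the count tables were taken by symbol, and they were chosen from earlier results on the same comparison of EGFP negative with EGFP positive cells. Their differences between the groups are therefore given as a description, and no p-value is given for them. RNA was sequenced in 4 libraries, 2 from EGFP positive cells, labelled as not extravasating more, and 2 from EGFP negative cells, labelled as extravasating more, extravasation being the exit of tumour cells from a vessel. The labels give both groups the genotype WT and the same constructs, H2B-EGFP (a histone fused to a green fluorescent protein) and CMV-RFP (a red fluorescent protein under a viral promoter). They do not say how the cells were separated, whether the line was a single clone, or whether each library had its own culture. The p-values then measure only the spread between libraries, which may be technical.

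Aldo-keto reductases use NADPH to reduce aldehydes and ketones to alcohols. The AKR1C enzymes act on steroid hormones and prostaglandins, the AKR1B enzymes on glucose, retinaldehyde and products of lipid peroxidation, AKR1A1 on glucuronate and many other aldehydes, and AKR7A2 on succinic semialdehyde. Several of the genes, AKR1C1 to AKR1C3 and AKR1B10 among them, are known targets of NRF2, the transcription factor of the response to oxidants and electrophiles, and in tumour cells the enzymes are known for inactivating carbonyl-containing drugs.

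The AKR1C genes are copies of each other, which matters for how their counts are read, and their promoter sequences show how close the copies are. The RefSeq promoter table (build GRCh38.p14, 300 bases around each start site) held 9 windows for 6 of the 7 genes. AKR1B10 had no entry. The AKR1C1 window lies at chr10:4963165-4963464 on the plus strand and the AKR1C2 window at chr10:5003808-5004107 on the minus strand. Capitals mark bases that differ between these 2 windows, of which 4 are substitutions and 4 are present only in AKR1C1. The window of the upstream AKR1C3 start lies at chr10:5048531-5048830 on the plus strand, and its capitals mark a TATAAA match on the opposite strand. The sequences read 5′ to 3′.
AKR1C1: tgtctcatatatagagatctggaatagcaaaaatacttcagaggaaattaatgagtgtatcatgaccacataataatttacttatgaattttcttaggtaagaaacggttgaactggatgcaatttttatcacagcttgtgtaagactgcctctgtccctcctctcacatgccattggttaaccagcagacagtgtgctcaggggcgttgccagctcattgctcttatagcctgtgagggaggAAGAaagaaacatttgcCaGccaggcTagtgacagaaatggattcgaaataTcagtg
AKR1C2: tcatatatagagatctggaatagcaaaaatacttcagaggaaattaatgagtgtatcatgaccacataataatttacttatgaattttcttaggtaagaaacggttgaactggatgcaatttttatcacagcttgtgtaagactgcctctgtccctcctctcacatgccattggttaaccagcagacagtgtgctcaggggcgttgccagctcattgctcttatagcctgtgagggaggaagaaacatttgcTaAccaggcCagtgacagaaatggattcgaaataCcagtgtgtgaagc
AKR1C3: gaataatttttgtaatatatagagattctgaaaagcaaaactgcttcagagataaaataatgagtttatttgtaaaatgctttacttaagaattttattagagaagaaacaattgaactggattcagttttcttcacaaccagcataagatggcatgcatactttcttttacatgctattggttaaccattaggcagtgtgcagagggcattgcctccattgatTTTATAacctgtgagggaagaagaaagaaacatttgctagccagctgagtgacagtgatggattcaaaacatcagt

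AKR1C1 and AKR1C2 were identical at 288 of 292 aligned promoter bases (98.6%), while the upstream AKR1C3 window matched AKR1C1 at 227 of 291 aligned bases. The windows therefore form a near-identical pair and a more distant relative. The coding transcripts showed the same order. Of the stretches of 50 bases in AKR1C1 transcripts of GENCODE 29, 27.0% also occurred in a transcript of another gene, against 48.1% in AKR1C2 and 9.55% in AKR1C3. For stretches of 100 bases these shares were 16.3%, 28.3% and 3.85%. They are shares of the stretches of every listed coding transcript, so unshared exons that are not used would lower them. Nearly all of the sharing of AKR1C1 was with AKR1C2 (26.6% of its 50-base stretches), and AKR1C3 shared 7.61% with AKR1C2. AKR1A1 shared none at either length, AKR1B1 shared 4.78% at 50 bases with its copies AKR1B1P1, AKR1B1P2, AKR1B1P3 and AKR1B1P7 and none at 100, and AKR7A2 shared 7.76% at 50 bases, with AKR7L and AKR7A3. AKR1B10 shared 11.6% at 50 bases with its neighbour AKR1B15. The read length is not given in the sources used here, and the file headers name no option for reads that fit several places. Counts of AKR1C1 and AKR1C2 are thus uncertain as single genes, and their sum with AKR1C3 is given beside them.

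All values below come from raw counts, scaled to CPM (counts per 1000000) after scaling of each library's total by the trimmed mean of M values (TMM, factors 0.987 to 1.009). Levels of different genes are compared as TPM (transcripts per 1000000), which also divides by exon length. Libraries held 11445076 to 12635576 counts, so that 3 counts, the limit a count of 0 allows, correspond to 0.241 to 0.26 CPM. H2BC11, an H2B histone gene used to check the EGFP labels, was at 638 and 669 CPM in EGFP positive and at 5.48 and 7.07 CPM in EGFP negative libraries. The line's mesenchymal character was visible in VIM, CD44, AXL, CAV1 and LGALS1, which summed to 7864 to 10048 CPM. Of these, VIM (4199 and 5813 mean CPM), LGALS1 (583 and 907) and CAV1 (575 and 716) were called higher in EGFP negative cells by edgeR. CD44 (865 and 641) was called lower, and AXL (1693 and 1623) did not pass. The luminal markers ESR1, PGR, FOXA1 and CDH1 stayed at or below 0.26 CPM in every library. The other 5 of 9 luminal markers were present: KRT8 (380 to 497 CPM), KRT18 (377 to 446), ERBB2 (80.6 to 99.2) and GATA3 (9.34 to 11.2) did not pass the test, and EPCAM, an epithelial adhesion molecule, fell from 13 to 6.84 mean CPM (edgeR adjusted p = 0.0021). The part of EPCAM-expressing cells in the results below was not tested. Of 7 leukocyte and endothelial markers, CD3E and CDH5 were at 0 in all libraries, and their sum ranged over 1.48 to 1.73 CPM in the EGFP positive and 3.78 to 4.28 CPM in the EGFP negative libraries. Most of that difference was PECAM1, an endothelial adhesion molecule, at 0.779 and 0.781 against 3.13 and 3.69 CPM, and its part in the results below was not tested.

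The AKR1C genes were the members with the largest differences. AKR1C3, which makes testosterone from androstenedione and reduces prostaglandin precursors, had 38 and 33 counts in EGFP positive libraries 1 and 2 and 303 and 326 in EGFP negative libraries 1 and 2. These are 3.29 and 2.86 CPM against 24.3 and 27.9 CPM. Both EGFP negative libraries lay far above both EGFP positive ones. The means were 3.08 ± 0.299 and 26.1 ± 2.54 CPM (SD, n = 2), 8.5-fold apart, and the log2 fold change was 3.08 ± 0.19 (SE). The gene spans chr10:5048812-5107686. In these bulk libraries, fewer expressing cells and less RNA per cell cannot be told apart.

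AKR1C1, which inactivates progesterone, had 6 and 10 counts in EGFP positive libraries and 53 and 46 in EGFP negative ones, or 0.519 and 0.868 against 4.26 and 3.94 CPM. The groups did not overlap, and the log2 fold change was 2.55 ± 0.39 (SE). The summed counts stood in a ratio of 5.92 (95% counting interval 3.47 to 10.8). AKR1C2, which inactivates dihydrotestosterone, had 7 and 2 counts against 47 and 32, or 0.606 and 0.174 against 3.78 and 2.74 CPM. Its groups did not overlap either, with a log2 fold change of 3.03 ± 0.51 (SE) and a ratio of summed counts of 8.4 (95% counting interval 4.21 to 19). Leaving out EGFP positive library 1 moved the log2 fold change to 4.15, and leaving out library 2 of that group moved it to 2.41. The EGFP positive levels of this gene rest on 9 counts in all, and counting intervals cover counting error only.

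Summed, AKR1C1 to AKR1C3 had 51 and 45 counts in EGFP positive and 403 and 404 in EGFP negative libraries. This sum does not depend on how counted reads were divided among the 3 copies. It would lack any read left uncounted because it fits several copies. The summed level was 4.16 ± 0.358 against 33.5 ± 1.59 CPM (SD, n = 2), and its log2 fold change was 3.01 ± 0.16 (SE). The plots of CPM by library show the gap for each copy and for the sum.

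**Figure D1:**
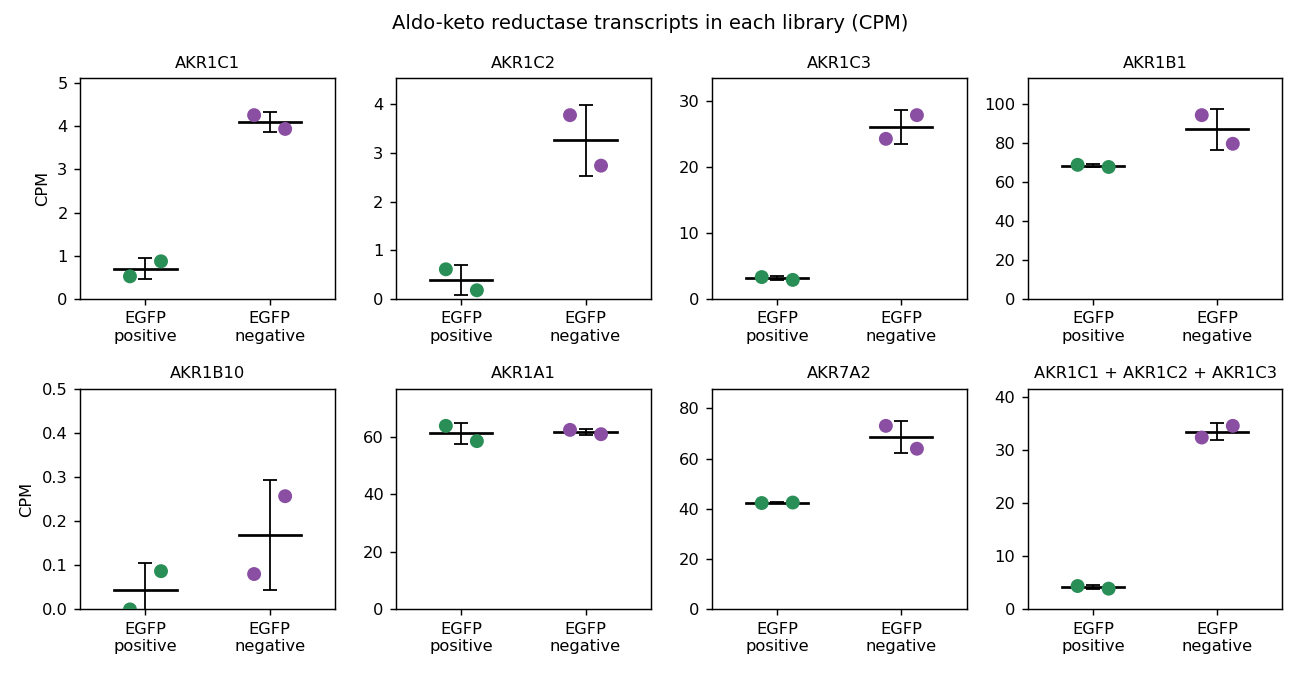
CPM of each of the 7 aldo-keto reductases and of the sum of AKR1C1 to AKR1C3 in the 2 EGFP positive (green) and 2 EGFP negative (purple) libraries, each panel on its own axis from 0. Points are libraries, horizontal lines are means and bars are ± 1 SD. The AKR1C panels separate the groups, as from 3.29 and 2.86 to 24.3 and 27.9 CPM for AKR1C3, while AKR1A1 lies at 58.4 to 63.7 CPM in both.

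The make-up of the AKR1C sum was read from the share of each copy. AKR1C3 held 74.5% of the counts of the 3 genes in EGFP positive library 1 (95% Wilson interval 61.1 to 84.5%) and 73.3% in library 2 (59.0 to 84.0%). In EGFP negative libraries 1 and 2 it held 75.2% (70.7 to 79.2%) and 80.7% (76.6 to 84.2%). Each EGFP positive interval contained both EGFP negative shares, so no difference in the share of AKR1C3 was detectable at this depth. AKR1C1 held 11.8 and 22.2% in EGFP positive and 13.2 and 11.4% in EGFP negative libraries. AKR1C2 held 13.7 and 4.44% against 11.7 and 7.92%. Per length, AKR1C3 took 89.9 to 93.2% of the TPM of the 3 genes in every library, since the tables list 6915 exon bases for AKR1C1, 3922 for AKR1C2 and 1610 for AKR1C3. Those lengths join the exons of every listed transcript, so that TPM of AKR1C1 and AKR1C2 is too low where their long exons are not used. Stretches of 50 bases shared with other genes make up 9.55% of AKR1C3, against 27% of AKR1C1 and 48.1% of AKR1C2. These are shares of 2221 stretches in AKR1C3 and 7072 in AKR1C1, so long exons that are not used would lower the AKR1C1 share. Leaving out reads that fit several places could thus lower the counts of AKR1C1 and AKR1C2 more than those of AKR1C3. The intervals do not cover this.

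**Figure D2:**
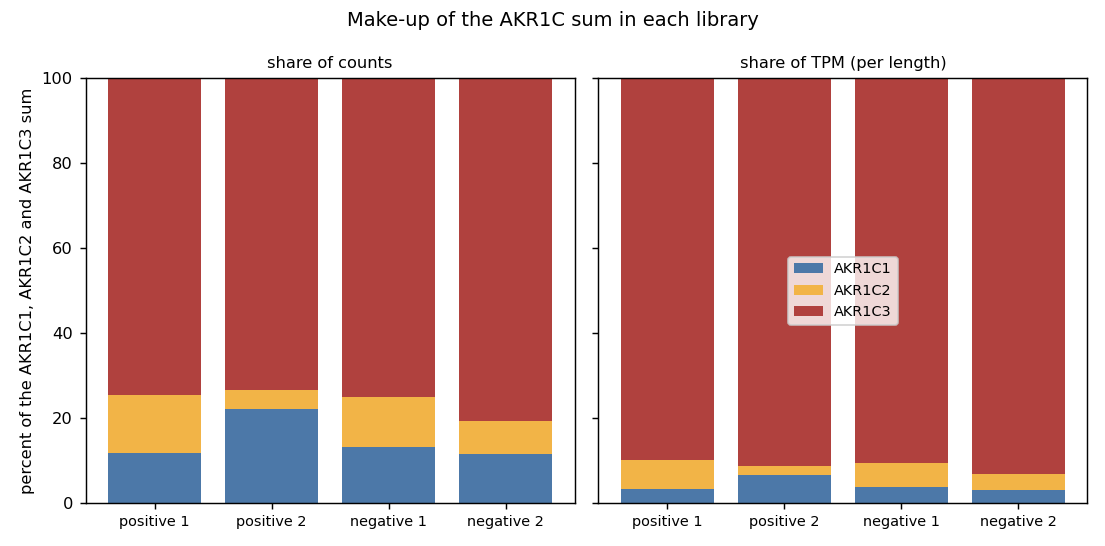
Share of AKR1C1, AKR1C2 and AKR1C3 in their sum in each of the 4 libraries, as percent of counts (left) and percent of TPM (right). AKR1C3 holds 73.3 to 80.7% of the counts and 89.9 to 93.2% of the TPM.

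AKR1B1 and AKR1B10 differed in whether they were detected at all. AKR1B1, aldose reductase, which turns glucose into sorbitol, had 794 and 779 counts in EGFP positive and 1173 and 928 in EGFP negative libraries, or 68.7 and 67.6 against 94.2 and 79.5 CPM. The groups did not overlap, but the EGFP negative libraries differed from each other by more than the lower of them differed from the EGFP positive ones. The log2 fold change was 0.35 ± 0.10 (SE), a 1.27-fold difference of the means, and it was 0.22 without EGFP negative library 1 and 0.48 without EGFP negative library 2. AKR1B1 lies on chr7:134442356-134459100. AKR1B10, which reduces retinaldehyde and is found on the same chromosome at chr7:134527567-134541412, had 0, 1, 1 and 3 counts in the 4 libraries. All of them are at or below the floor of 3 counts, so no fold change is given, and the gene did not pass the filter on low counts.

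AKR1A1, aldehyde reductase, did not separate the groups. It had 736 and 673 counts in EGFP positive and 775 and 710 in EGFP negative libraries, or 63.7 and 58.4 against 62.3 and 60.8 CPM. The EGFP negative values lay inside the range of the EGFP positive ones, with a log2 fold change of 0.01 ± 0.10 (SE). AKR7A2, which reduces succinic semialdehyde and aflatoxin dialdehyde, had 489 and 490 counts against 909 and 746, or 42.3 and 42.5 against 73 and 63.9 CPM. Its groups did not overlap, and the log2 fold change was 0.69 ± 0.10 (SE), a 1.61-fold difference of the means. AKR1A1 spans chr1:45550543-45570049 and AKR7A2 chr1:19303965-19312144.

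In all, 5 of the 6 members that passed the filter were called higher in EGFP negative cells by edgeR's quasi-likelihood test (Benjamini-Hochberg adjusted p under 0.05 over 16413 genes) and 0 lower. Over all tested genes 18.9% were called, 9.40% higher and 9.46% lower. Both EGFP negative libraries lay above both EGFP positive ones for the same 5 members, and for 28.1% of tested genes. As the genes were chosen with this comparison known, these counts describe the choice and nothing is read from them. AKR1C1 (6 and 10 counts in EGFP positive libraries) and AKR1C2 (7 and 2) passed the filter only through the EGFP negative libraries. Rows this low in EGFP positive cells were tested only if they were higher in EGFP negative cells. With a stricter filter on low counts, 4 of 5 tested members were called. AKR1B1 fell out of the count by DESeq2, with no filter on low counts, and without EGFP positive library 1, EGFP positive library 2 or EGFP negative library 1. Among the 16413 genes, 43 had a larger log2 fold change than AKR1C3, 993 than AKR7A2 and 2708 than AKR1B1.

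Per length, the order of the members was the same at the top in every library. AKR1B1 was the most abundant at 114 and 115 TPM in EGFP positive and 152 and 131 TPM in EGFP negative libraries, followed by AKR7A2 at 70.1 and 72.3 against 118 and 106 TPM. AKR1A1 came next at 60.2 and 56.6 against 57.4 and 57.3 TPM, and AKR1C3 followed at 4.6 and 4.11 against 33.3 and 39 TPM. The TPM ranges of neighbours in this order did not overlap in either group. AKR1A1 had 13.1 and 13.8 times the TPM of AKR1C3 in EGFP positive libraries and 1.73 and 1.47 times in EGFP negative ones. AKR1C2 (0.348 and 0.102 TPM) and AKR1C1 (0.169 and 0.29 TPM) overlapped in the EGFP positive libraries. In the EGFP negative ones AKR1C2 was at 2.12 and 1.57 TPM and AKR1C1 at 1.36 and 1.28 TPM. AKR1B10 reached at most 0.357 TPM. The 7 genes together summed to 249 and 248 TPM in EGFP positive and 365 and 336 TPM in EGFP negative libraries, of which AKR1C3 was 1.85 and 1.66% against 9.12 and 11.6%. The total thus remained mostly AKR1B1, AKR7A2 and AKR1A1 in both groups.

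Other rows of the family were few in counts. Of 23 further rows named AKR, 6 had no count in any library and 12 had 10 or more counts in all. AKR1C4, the liver member of the AKR1C cluster, had 2 and 0 counts in EGFP positive and 7 and 8 in EGFP negative libraries, a 7.18-fold ratio (95% counting interval 1.67 to 64.7), and it was too low to be tested. AKR1C8 and AKR1D1, a steroid reductase of bile acid synthesis, had none. AKR1E2 was at 2.43 and 3.57 mean CPM (log2 fold change 0.55 ± 0.33, SE, edgeR adjusted p = 0.29). AKR7A3 had 8, 0, 6 and 4 counts and AKR7L 1, 3, 4 and 4. The potassium channel beta subunits carry the same protein fold. KCNAB2 rose from 3.12 to 6.54 mean CPM (log2 fold change 1.07 ± 0.26, SE, edgeR adjusted p = 0.011, and 0.17 without EGFP positive library 1), while KCNAB1 (log2 fold change 1.10 ± 0.52, SE) and KCNAB3 (0.19 ± 0.43) did not pass. In the list of other superfamily genes 1 of 4 tested genes was higher and 0 lower, with a median log2 fold change of 0.81. The share called, 25%, stands beside 18.9% of all genes, so the count itself is not a result about the list. Leaving out EGFP positive library 1 moved the log2 fold change of KCNAB2 to 0.81.

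Pseudogene rows took part of the family's reads. The 8 AKR1B1P rows held 131 and 188 counts in EGFP positive and 157 and 170 in EGFP negative libraries, which is 13.4 to 24.1% of the AKR1B1 counts of the same library. Their largest, AKR1B1P7, had 56 and 86 against 51 and 73 counts. AKR1B1P1, AKR1B1P2, AKR1B1P3 and AKR1B1P7 were tested, with log2 fold changes of -0.25 to 0.29, and none passed. Whether their change differs from that of AKR1B1 was not tested. AKR1B1P4 (4, 8, 11 and 9 counts) and AKR1B1P6 (2, 3, 7 and 1) were too low to be tested. AKR7A2P2, a copy of AKR7A2 on the X chromosome, rose from 16 and 15 to 33 and 39 counts (log2 fold change 1.15 ± 0.36, SE, edgeR adjusted p = 0.037), and AKR7A2P1 had 4, 7, 20 and 8 counts. Whether these counts are reads of the copies or misplaced reads of the parent cannot be told apart.

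**Figure D3:**
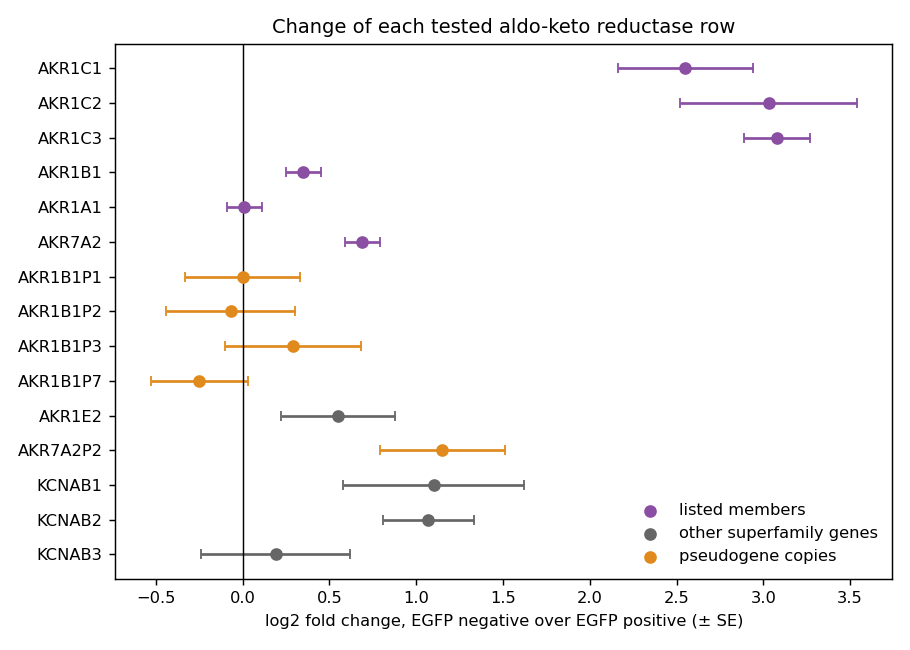
Log2 fold change of EGFP negative over EGFP positive cells, ± SE, for the 6 listed members that passed the count filter (purple), for other superfamily genes (grey) and for pseudogene copies (orange). The AKR1C genes lie at 2.55 to 3.08, AKR1A1 at 0.01, and the AKR1B1 copies between -0.25 and 0.29.

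The AKR1C genes share a place on chromosome 10. AKR1C1 (chr10:4963415-4983283), AKR1C2 (chr10:4987775-5004014) and AKR1C3 lie in a row, and no exon of another row overlaps theirs. Within 1000000 bases of either side of the AKR1C cluster, 15 other named rows were tested, and edgeR called 2 of them higher and 2 lower, beside 18.9% called over all genes, so the count itself is not a result about the region. NET1, an exchange factor for RhoA, rose from 121 and 123 to 212 and 245 CPM (log2 fold change 0.91 ± 0.09, SE, edgeR adjusted p = 9.4e-06), and the long noncoding RNA LASTR rose from 1.56 and 2 to 5.54 and 6.43 CPM (adjusted p = 8.0e-04). TASOR2, whose product is related to a chromatin silencing factor, fell from 173 to 128 mean CPM (adjusted p = 0.0052), and LINC00702 fell from 4.16 to 1.35 mean CPM (adjusted p = 0.0094). The remaining 11 did not pass, among them AKR1E2. These 4 neighbours were singled out after their values were seen. The log2 fold changes of the AKR1C genes, 2.55 to 3.08, lay above those of all 15. The AKR1C genes were chosen with this comparison known, so their place above the neighbours describes the choice.

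**Figure D4:**
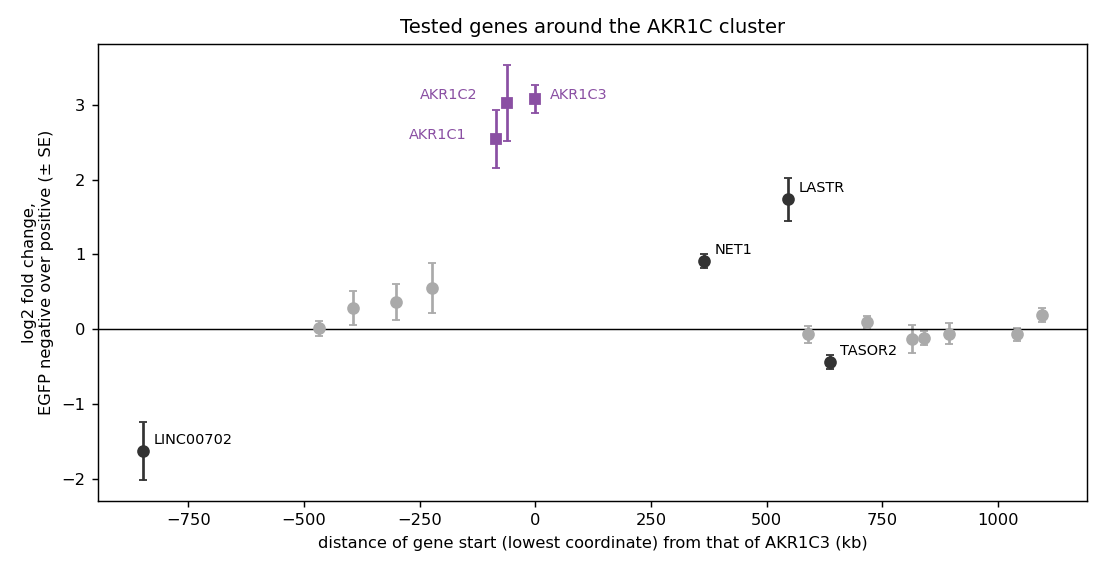
Log2 fold change, ± SE, of AKR1C1, AKR1C2 and AKR1C3 (purple squares) and of the 15 other tested rows within 1000000 bases of the AKR1C cluster (circles, dark where edgeR's adjusted p was under 0.05), against the distance of each gene's lowest coordinate from that of AKR1C3 in kb. The AKR1C genes lie at 2.55 to 3.08 and NET1 and LASTR at 0.91 and 1.74.

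Promoter windows were searched on both strands for TGACNNNGC (core of the antioxidant response element bound by NRF2), TGANTCA (AP-1), GCGTG (core of the xenobiotic response element) and TATAAA. The first overlaps with AP-1 in its opening letters. Among 35116 RefSeq promoter windows of 300 bases, these were found in 13.3%, 7.71%, 36.5% and 11.5%. AKR7A2 had the same 3 matches to TGACNNNGC in both of its overlapping windows, and the other members with a window had none. The AKR7A2 sequence is shown for these, in capitals, at chr1:19312095-19312394 on the minus strand, where the first match, 169 bases before the start site, is on the opposite strand and the others, 158 and 97 bases before it, are on the printed strand.
AKR7A2: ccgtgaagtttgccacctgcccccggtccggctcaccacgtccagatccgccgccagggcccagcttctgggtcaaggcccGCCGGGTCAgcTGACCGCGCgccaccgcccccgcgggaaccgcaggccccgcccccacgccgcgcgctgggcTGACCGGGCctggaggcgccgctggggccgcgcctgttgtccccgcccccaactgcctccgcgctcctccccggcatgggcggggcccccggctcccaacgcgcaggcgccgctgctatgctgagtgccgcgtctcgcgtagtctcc

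TGANTCA occurred in none of the members' windows, GCGTG in those of AKR1B1 and AKR7A2, and TATAAA only in the upstream AKR1C3 window shown above. In base composition the windows fell into an AKR1C group of 33.7 to 41.3% G and C and a group of AKR1B1, AKR1A1 and AKR7A2 with 54.3 to 77.3%. A match of letters is a description of the window, and elements outside the 300 bases were not searched.

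Enzymes and regulators around the members were taken from lists by function. Called by edgeR were 25% of tested genes among other carbonyl and quinone reductases and 27.3% among steroid genes. The share was 40% for retinaldehyde, 44.4% for NRF2 regulator, 50% for osmotic response, 53.8% for aldehyde and 55.6% for prostaglandin genes. These stand beside 18.9% of all genes. The lists are small and were chosen with earlier results of these data known, so their counts are a description. Carbonyl, quinone and enone reductases of other protein families had 4 higher and 0 lower of 16 tested, with a median log2 fold change of 0.04, where all tested genes had 0.00. NQO1, the quinone reductase that is a standard NRF2 target, rose from 130 and 131 to 315 and 347 CPM (log2 fold change 1.34 ± 0.08, SE, edgeR adjusted p = 8.6e-08). DHRS7 rose from 10 to 19.8 mean CPM and PTGR1, which reduces leukotriene and prostaglandin enones, from 26.3 to 41.1 (adjusted p = 5.3e-04 and 0.0015). DHRS3, a retinaldehyde reductase, passed at 0.78 and 2.13 mean CPM (adjusted p = 0.044, and 0.18 by DESeq2). The carbonyl reductases CBR1 (52 and 53.7 mean CPM) and CBR3 (9.83 and 9.78) did not pass.

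NRF2 targets outside the family had 11 higher and 1 lower of 29 tested, a share called of 41.4% beside 18.9% of all genes, and a median log2 fold change of 0.22. Besides NQO1 and PTGR1, the higher ones included the drug exporter ABCC3 (5.24 and 22.8 mean CPM, log2 fold change 2.12 ± 0.17, SE, edgeR adjusted p = 1.4e-06), the enzymes of the NADPH-yielding pentose phosphate pathway PGD (136 and 209) and TKT (385 and 474), the ferritin chains FTL (741 and 1114) and FTH1 (113 and 112 CPM in EGFP positive against 251 and 138 in EGFP negative libraries), the epoxide hydrolase EPHX1 (26.7 and 40.8), and TRIM16 and TRIM16L. The lower one was the thioredoxin reductase TXNRD1, at 518 and 421 mean CPM. The glutathione synthesis genes GCLC (31.1 and 32.9) and GCLM (70.5 and 73.7), the heme oxygenase HMOX1 (14.4 and 13.4) and the cystine transporter SLC7A11 (129 and 114) did not pass. Ferritin genes and TRIM16 with TRIM16L resemble other genes closely, which makes these counts uncertain. By DESeq2, 9 NRF2 targets were called higher and 1 lower, and edgeR called fewer when either EGFP positive library was left out. As this list was chosen with earlier results of these data known, its share called is a description.

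The regulators of NRF2 had 2 higher and 2 lower of 9 tested, with a median log2 fold change of -0.02. NFE2L2, which encodes NRF2, was at 83.2 and 98.6 mean CPM (log2 fold change 0.25 ± 0.09, SE, edgeR adjusted p = 0.084), and its inhibitor KEAP1 at 209 and 189 (adjusted p = 0.31). SQSTM1, an adaptor that binds KEAP1, rose from 136 to 170 mean CPM, and RBX1, a ligase subunit, from 54.8 to 68.1. The small Maf partners MAFK (50.3 and 32.6) and MAFF (50 and 38.6) fell. Without EGFP positive library 1, or without library 2, only 1 of the 9 was still called, and DESeq2 and the fit with no filter on low counts called 2.

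Genes on the glucose and glucuronate routes were taken from a pair of lists, in which 2 of 6 and 0 of 5 tested genes were called, beside 18.9% of all genes. SORD, which takes the sorbitol made by AKR1B1 onward to fructose, was at 42.2 and 36.9 mean CPM and KHK at 13 and 11.8. In the list of the polyol pathway and glyoxalase 2 were higher and 0 lower of 6, with a median log2 fold change of 0.03: PARK7 (182 and 245 mean CPM) and the formaldehyde-clearing ADH5 (85.4 and 106), and neither was called without EGFP positive library 1 or without library 2. GLO1, the glyoxalase that removes methylglyoxal, was at 240 and 236. Of the glucuronate genes around AKR1A1, edgeR called 0 of 5, with UGP2 at 103 and 89.9 and UGDH at 51.3 and 45.6 mean CPM. DESeq2 also called 0, 0 had an unadjusted edgeR p under 0.05, and UGP2 alone was called without EGFP negative library 2. Of the osmotic response genes, to which AKR1B1 is known to belong, the taurine transporter SLC6A6 rose from 87.7 to 134 mean CPM (adjusted p = 3.2e-04) and SGK1 fell from 26.7 to 18.6, while the factor NFAT5 was at 49.7 and 52.6. That list had 1 higher and 1 lower of 4 and a median of 0.00, and SGK1 lost its call without EGFP positive library 1 or without library 2.

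Steroid and prostaglandin genes around AKR1C1 to AKR1C3 were examined next. Steroid enzymes and receptors had 3 higher and 0 lower of 11 tested, with a median log2 fold change of 0.11: HSD17B10 (68.9 and 102 mean CPM), HSD17B4 (73.6 and 100) and the estrogen receptor gene ESR2 (0.65 and 1.95), while only 1 of 11 was called without EGFP positive library 1 or without library 2 and 5 without EGFP negative library 2. ESR2 had 4 and 11 counts in EGFP positive and 25 and 22 in EGFP negative libraries (edgeR adjusted p = 0.039, and 0.17 by DESeq2). Its log2 fold change moved from 1.57 to 1.02 without EGFP positive library 1. ESR1 and PGR were near 0, as given above. Prostaglandin genes had 3 higher and 2 lower of 9, with a median of 0.04. TBXAS1, the thromboxane synthase, rose from 1.82 to 9.23 mean CPM (adjusted p = 4.0e-05), HPGD, which breaks prostaglandins down, from 0.607 to 2.44 (adjusted p = 0.0059, and 0.054 without EGFP positive library 1), and PTGES3 from 226 to 274. PTGER4, a receptor of prostaglandin E, fell from 15.6 to 8.29 (adjusted p = 0.0016), and PTGES2 from 102 to 83.8. The cyclooxygenase gene PTGS2 was at 3.55 and 2.89 mean CPM and did not pass. In that list 2 were called without EGFP positive library 1 and 3 without library 2.

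Aldehyde dehydrogenases and glutathione transferases, which clear the same aldehydes by oxidation and conjugation, had 5 higher and 2 lower of 13 tested, with a median log2 fold change of 0.21. ALDH3A1 was at 0.26 and 0.0868 CPM in EGFP positive libraries and at 14.7 and 13.4 CPM in EGFP negative ones (edgeR adjusted p = 5.5e-08), with EGFP positive counts at or below the floor. ALDH3A2, which oxidises fatty aldehydes, rose from 46.9 to 120 mean CPM (adjusted p = 2.5e-07), while GSTM3 fell from 39.2 to 20.1 and ALDH1B1 from 73.4 to 46.3. In the retinaldehyde list 3 were higher and 1 lower of 10, with a median of -0.14: the retinoic acid receptor gene RARG rose from 24.9 to 41.2 mean CPM (adjusted p = 4.7e-04), and RDH11 and DHRS3 were higher and RDH14 lower. Of that list DESeq2, the fit with no filter, and the fits without EGFP positive library 1 or without library 2 each called 1.

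**Figure D5:**
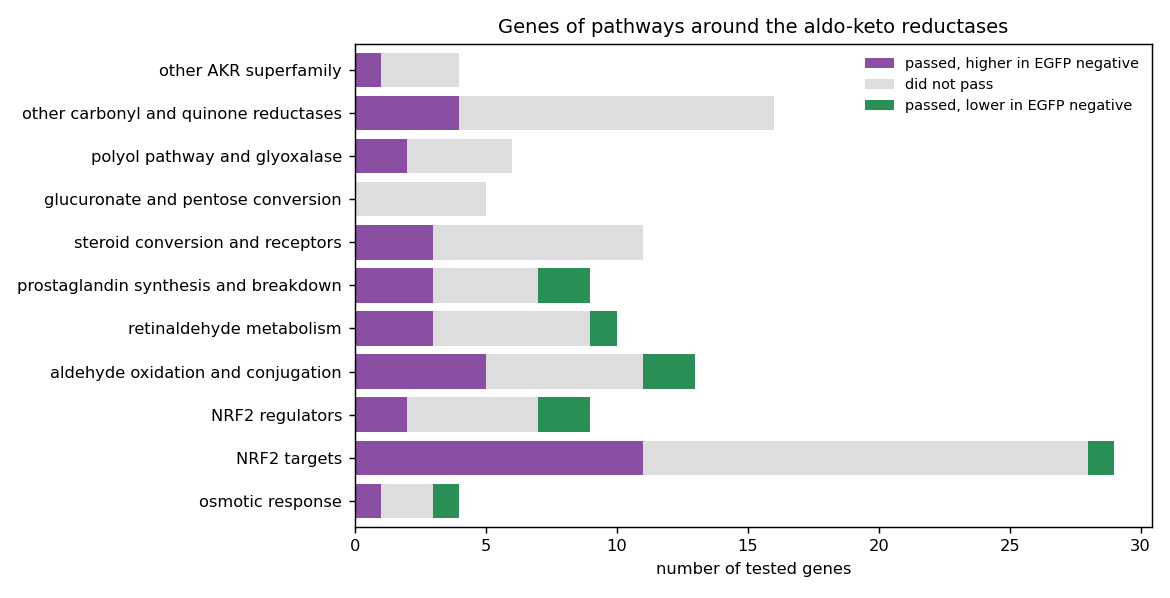
Number of tested genes in each functional list that were higher in EGFP negative cells (purple), did not pass (grey) or were lower (green) by edgeR at an adjusted p of 0.05. NRF2 targets have 11 higher and 1 lower of 29, and glucuronate genes 0 of 5, where 18.9% of all tested genes were called.

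Genes with a pattern like that of each member were found by the Euclidean distance between mean-centred log2 CPM over the 4 libraries, among 9183 protein-coding genes of at least 10 mean CPM. Nearest to AKR1C3 were KRT81 (distance 0.31), NUP210 (0.36) and PDE2A (0.39), whose mean CPM was 37.3 and 305, 8.15 and 69.8, and 3.9 and 26. Nearest to AKR1C1 were SEMA3F (0.43), CA12 (0.45) and LAPTM5 (0.48), and to AKR1C2 SORL1 (0.69), NOX5 (0.71) and SIGIRR (0.72). AKR7A2 lay nearest to RASSF3 and PML (0.02 each) and STING1 (0.04). AKR1B1 lay nearest to SLC9A7, PSMA6 and ATN1 (0.03 each), and AKR1A1 to COA4, TRNAU1AP (0.02 each) and TPRG1L (0.03). Each distance is over 4 libraries of 2 groups, so it largely restates the group difference with which the members were chosen. The cut of 10 CPM was on the mean of all 4 libraries. Genes such as NUP210 and PDE2A, below 10 CPM in EGFP positive cells, passed it only through the EGFP negative libraries. A small constant was added before the log, which lowers the differences of genes with few counts. The nearest genes are therefore a description.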

How the data were processed

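The authors' deposited tables hold raw counts per gene name for 4 libraries of polyA-selected RNA from a directional kit. Per the file headers, they were counted with featureCounts 2.0.1 for paired reads over exons of GENCODE 46, with no strand option and no option for reads that fit several places. The aligner is not given in the sources used here. The submitters' processing notes name an older human build, but 88.4% of 19219 protein-coding gene names lay within 5000 bases of their RefSeq GRCh38.p14 place, so coordinates are given as GRCh38. Genes were tested with edgeR 4.0.16 (R 4.3.3): TMM scaling, filterByExpr (minimum count 10, total 15), quasi-likelihood test and Benjamini-Hochberg adjustment at 0.05 over 16413 genes. With 2 libraries per group, a single value in an exact two-sided permutation test could not go below p = 0.33. TPM used the deposited exon lengths. Alternatives were other scalings and filters, DESeq2 1.42.0, limma-voom (limma 3.58.1), a replicate block and leaving out each library. The members and gene lists were chosen with earlier results of these data known. Named were all members, other AKR rows of 10 or more counts, up to 4 called genes per list with the smallest adjusted p (the 2 most abundant where none was called), and the 3 nearest genes per member. Other named genes, such as CBR1, CBR3 and NET1, were chosen after their values were seen. Some list genes are not reported here.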

Additional observations from a re-analysis of the deposited data

How the results depend on the processing

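Log2 fold changes of the members kept their direction under the alternatives, except AKR1A1, which lay between -0.05 and 0.08, and 4 or 5 members were called. AKR1C2 moved most, from 3.03 to 4.15 without EGFP positive library 1 and to 2.41 when library 2 of that group was left out. The AKR1C sum stayed between 2.92 and 3.10 when 1 library was left out. Of all genes, 3095 were called, against 2041 by DESeq2 and 1452 to 4942 with 1 library left out (1499 without EGFP positive library 1, 1452 without EGFP positive library 2, 4942 without EGFP negative library 2). Of the 109 tested list genes 41 were called, against 21 without EGFP positive library 1, 22 without EGFP positive library 2 and up to 49 in the other fits that left out 1 library. The level of AKR1C1 over AKR1C3 in EGFP negative cells was 0.0368 per length and 0.158 without length. Same-numbered libraries deviated together with r = 0.114 across genes, but nothing in the labels pairs them, and a replicate block raised the calls to 4704 genes. Of 415 recomputed values of named list genes, 370 stayed on their side of the threshold (UGP2 and UGDH, not called at first, among them), 44 lost their call, 1 gained one and 0 reversed. Counts of 10 or fewer per library limit AKR1C1 and AKR1C2 in EGFP positive cells.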
